A study of Homo sapiens with 2 samples.

Results

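Cyclophilins are peptidyl-prolyl isomerases, enzymes that turn the peptide bond before a proline during protein folding, and they are the proteins to which the immunosuppressant cyclosporin A binds. The 8 genes described here, *PPIA*, *PPIB*, *PPIC*, *PPID*, *PPIE*, *PPIF*, *PPIG* and *PPIH*, were taken by name from the 30238 gene names on the arrays, with all 18 of their probes among 41000. The group was put together with the ratios of *PPIC* already known, so its ratios are given as a description and no p-value is attached to them. The members sit in different compartments. Cyclophilin A (*PPIA*) is the abundant cytosolic form, cyclophilins B and C (*PPIB*, *PPIC*) carry a signal sequence for the secretory pathway, *PPID* works beside the chaperone HSP90, *PPIF* is the mitochondrial cyclophilin that promotes the permeability transition, and *PPIE*, *PPIG* and *PPIH* are nuclear proteins linked to pre-mRNA splicing.

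The cells were 2 drug resistant derivatives of A2780, a human ovarian carcinoma line. A2780CBN was selected in carboplatin, a platinum drug that crosslinks DNA, to a labelled dose of 22.2 µM. A2780CBNDXL was selected in carboplatin together with docetaxel, a taxane that stabilizes microtubules. For the combination the labels give a single figure, 8.02 µM, without the share of each drug. Each line was compared on 2-colour arrays with A2780CC, the A2780 cells kept in culture alongside without drug. Both are selected cell populations from 1 parental line, and RNA of 3 isolations of a line was pooled, so that each line was 1 sample measured on 4 arrays, numbered 1 to 4. Arrays 1 and 2 lay on slide 1 and arrays 3 and 4 on slide 2, with forward labelling (resistant line in Cy5) on arrays 1 and 3 and reverse labelling on arrays 2 and 4. All SDs here are over the 4 arrays of a line and cover labelling and hybridization only, not the spread between cultures. Fewer cells that express a gene and less RNA per cell cannot be told apart in such samples.

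Of the genes taken as markers of ovarian carcinoma cells, *KRT8*, *KRT18*, *PAX8* and *VIM* were well above background in 16 of 16 channels. *EPCAM* was so in 15 and *KRT19* in 12. Of the markers of other cell types, *PTPRC*, *PECAM1* and *ALB* were above background in 0 of 16 channels, whereas *CD3E* and *COL1A1* were above it in 16 of 16. The intensity of *PAX8* was low, at 35.5 to 69.2, beside 55.3 to 89.7 for *CD3E* and 71523 to 316087 for *VIM*. Clearing the background at the level of *PAX8* thus does not identify a cell type. Array 1 of A2780CBNDXL stood apart from the rest. The coefficient of variation of its spike-in controls was 19.5% (green) and 20.0% (red), against 3.56% to 4.87% on the other 7 arrays, and the *PPIC* and *PPID* ratios are also given without it.

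*PPIC* carried the family's largest ratios, and 2 probes measured it, both on chromosome 5 of NCBI36, the build of the array design. Probe A_23_P84018 lies at chr5:122387015-122387074 and probe A_23_P422724 at chr5:122387267-122387326. *PPID* also had a probe past the 2-fold limit, A_23_P386411 at chr4:159850179-159850238, while its other probe, A_23_P45022, stayed short of it. The first 30 of the 60 bases of the *PPIC* probes and of A_23_P386411 are shown as the sequences on which the *PPIC* and *PPID* results rest.
PPIC A_23_P84018: agggaaatttgactagtgtaatctgagata
PPIC A_23_P422724: taaaaatcaaaccgtcaccctttagtttgc
PPID A_23_P386411: gacaccttagttccttactgtttacagttt

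The 2 *PPIC* probes have different sequences, with 47 of 60 bases unlike when set side by side, and read separate stretches of the transcript on the same RNA. The gene start in RefSeq (GRCh38.p14, minus strand) is preceded by the following 250 bases, chr5:123036726-123036975, in which capitals mark CG steps.
PPIC promoter: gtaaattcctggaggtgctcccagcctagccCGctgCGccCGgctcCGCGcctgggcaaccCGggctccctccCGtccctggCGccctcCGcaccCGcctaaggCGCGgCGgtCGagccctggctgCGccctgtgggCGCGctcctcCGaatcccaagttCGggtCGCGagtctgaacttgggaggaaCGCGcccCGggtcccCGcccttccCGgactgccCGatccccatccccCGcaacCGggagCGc

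The window holds 30 CG steps and 74% G or C, and 89.1% of 35116 RefSeq promoter windows of this length hold as many CG steps or fewer (median 11 CG steps, 58% GC). The promoters of *PPIA* and *PPIB* hold 35 and 33 CG steps, that of *PPID* 21, and those of *PPIF* and *PPIH* 20 each. Methylation was not measured here.

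In A2780CBN *PPIC* was far above its control with both probes. On probe A_23_P84018 the processed intensity of the resistant line was 2025, 2427, 2446 and 3310 on arrays 1 to 4, and that of the control was 27.4, 17.4, 32.8 and 13.3. Every line value was thus far above every control value. The log2 ratios of line over control were 6.21, 7.13, 6.22 and 7.96, a mean of 6.88 ± 0.84 (SD, 4 arrays). The control cleared the background on arrays 1 and 3, and on these 2 the mean log2 ratio was 6.21, a 74.2-fold difference.

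The other probe gave a narrower spread in the same line. On probe A_23_P422724 the intensity was 1804, 2187, 1281 and 1737 in A2780CBN and 38.0, 31.7, 21.2 and 26.4 in its control, and the log2 ratios were 5.57, 6.11, 5.92 and 6.04. Their mean was 5.91 ± 0.24, and the 3 arrays on which the control was above background gave 5.82, a 56.6-fold difference. Among the 1436 genes that were at least 2-fold higher in A2780CBN, the ratio of A_23_P84018 held place 3 from the top and that of A_23_P422724 would hold place 9, places that rest on control signals close to the background.

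In A2780CBNDXL *PPIC* was also higher than in the control, but from a much lower signal in the resistant line. The intensity of probe A_23_P422724 was 132, 166, 140 and 164 in the line and 21.4, 29.9, 28.4 and 64.1 in the control. The line was above its control on each array and the ranges did not overlap. The log2 ratios were 2.62, 2.47, 2.30 and 1.35, with a mean of 2.19 ± 0.57 (SD, 4 arrays), and on the 3 arrays with the control above background (all but array 1) the mean was 2.11, or 4.31-fold.

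Probe A_23_P84018 read 38.5, 181, 193 and 263 in A2780CBNDXL and 19.1, 40.0, 43.0 and 61.9 in its control. Here the ranges overlapped. On array 1 both channels were dim and not well above background. The log2 ratios were 1.01, 2.18, 2.16 and 2.09, with a mean of 1.86 ± 0.57, and without array 1 the mean was 2.15. Since this probe represented the gene and failed the filter on array 1, *PPIC* did not count among the changed genes of A2780CBNDXL, although its other probe met every condition. Placed among the 1318 genes higher in that line, the ratios would hold places 388 (A_23_P422724) and 486 (A_23_P84018).

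**Figure D1:**
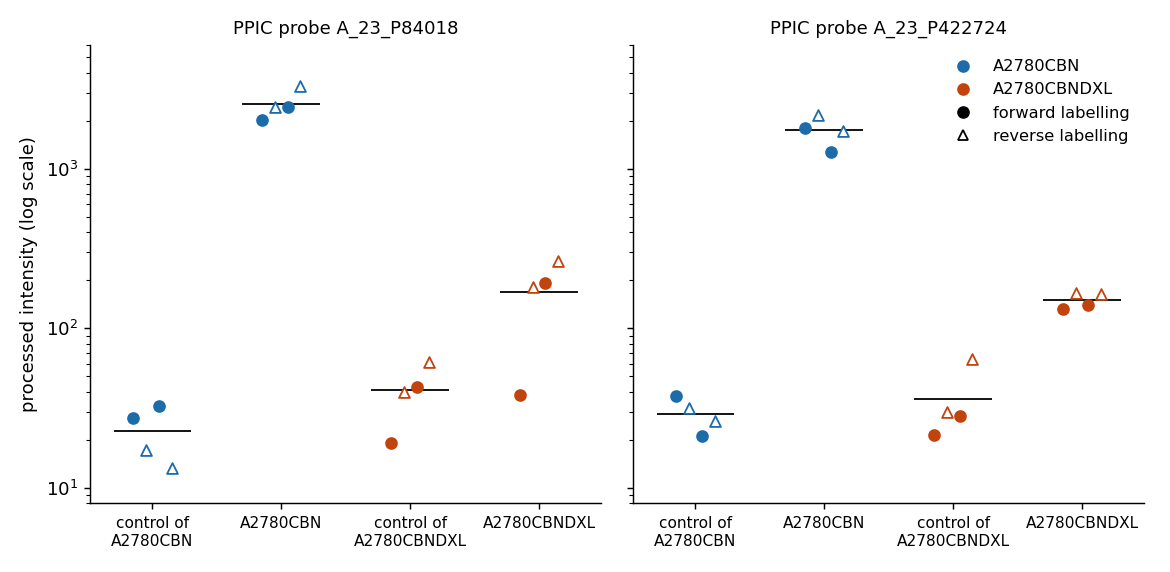
Processed intensity of the PPIC probes (log axis) in each channel of the arrays, with filled circles for forward and open triangles for reverse labelling and a bar at the arithmetic mean of 4 arrays. A2780CBN lies between 1281 and 3310 over both probes, whereas both sets of control channels lie at 64.1 or below.

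The size of these ratios depended on how the background was handled. With normexp background correction at an offset of 50 and loess normalization, the mean log2 ratio of A_23_P84018 was 3.24 in A2780CBN and 0.50 in A2780CBNDXL, so that the latter was below 2-fold. With an offset of 1 it was 4.70 and 0.95. The direction was the same in every alternative computed for both lines.

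**Figure D2:**
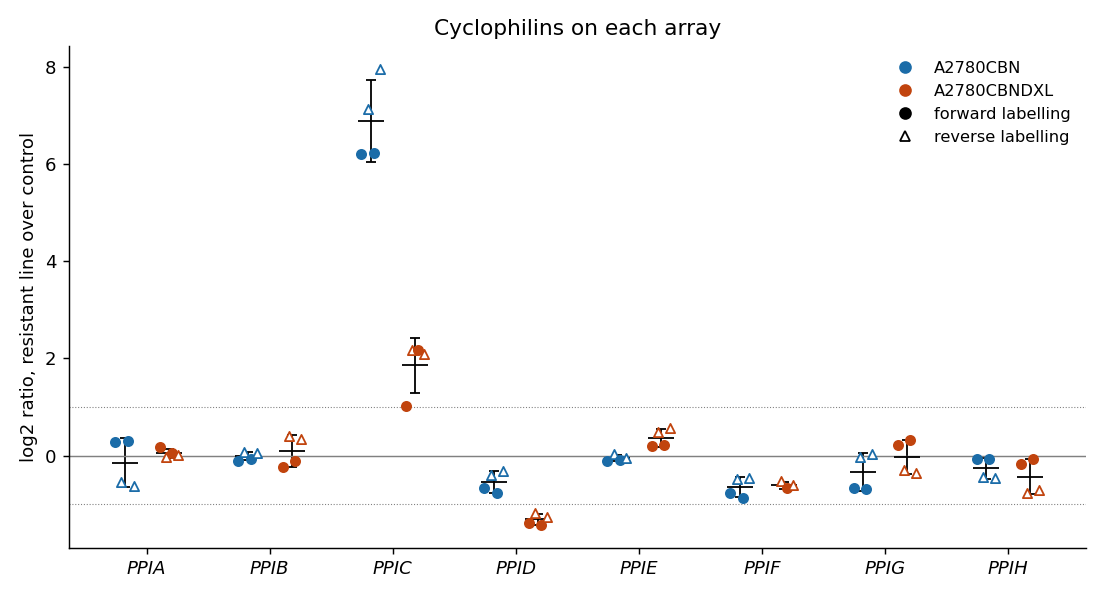
Log2 ratio of resistant line over co-cultured control for the 8 cyclophilins, 1 probe per gene, on each array (filled circles forward, open triangles reverse labelling), with the mean and SD over arrays in black and dotted lines at 2-fold. PPIC stands at 6.88 in A2780CBN and 1.86 in A2780CBNDXL, and PPID in A2780CBNDXL is the lowest at -1.31.

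Across the family a gene counted as changed when its representing probe, the one with the highest mean signal, was at least 2-fold different on average, had the same sign on all 4 arrays, and stood clear of the background on each array in the line or in the control. In A2780CBN 1 of the 8 members, *PPIC*, met this rule, where 12.6% of the 17951 genes tested did so (1436 higher and 817 lower). In A2780CBNDXL 6 members could be tested and 1, *PPID*, met it, against 16.9% of 17115 genes (1318 higher and 1575 lower). The median log2 ratio of the 8 members was -0.20 in A2780CBN and 0.01 in A2780CBNDXL, beside -0.06 and 0.04 over all genes tested.

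*PPID*, the cyclophilin 40 gene whose product binds HSP90, was lower in both lines than in their controls. On probe A_23_P386411 the intensity in A2780CBNDXL was 3849, 5249, 4215 and 4689, against 10008, 11939, 11316 and 11281 in the control, and the ranges did not overlap. The log2 ratios of -1.38, -1.19, -1.42 and -1.27 gave a mean of -1.31 ± 0.11 (SD, 4 arrays), or 2.49-fold lower, and -1.33 without array 1. In A2780CBN the same probe read 8739, 8762, 7531 and 8925 in the line and 13970, 11523, 12902 and 11147 in the control. The log2 ratios there were -0.68, -0.40, -0.78 and -0.32, a mean of -0.54 ± 0.22, again with separate ranges but short of 2-fold. The size depended on the control used. Against the control of the other line, the mean of this probe was -0.25 in A2780CBN and -1.61 in A2780CBNDXL.

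The other *PPID* probe gave the same sign on all 8 arrays at a smaller size. Its log2 ratios were -0.51, -0.36, -0.44 and -0.19 in A2780CBN (mean -0.38 ± 0.14) and -0.64, -0.79, -0.45 and -0.56 in A2780CBNDXL (mean -0.61 ± 0.14, and -0.56 without array 1). The ratios of the 2 probes in A2780CBNDXL thus differed by more than the SD of either, and only A_23_P386411 passed the 2-fold limit. With the mean over both probes in its place, *PPID* stood at -0.96 in A2780CBNDXL and no longer counted as changed. Normexp with an offset of 50 gave -1.28 for A_23_P386411 in A2780CBNDXL.

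*PPIF*, the mitochondrial member, was lower in both lines without reaching 2-fold. Probe A_23_P202104 (chr10:80784324-80784383) read 12372, 12855, 12685 and 13647 in A2780CBN and 21009, 17881, 23195 and 18681 in its control, with log2 ratios of -0.76, -0.48, -0.87 and -0.45 and a mean of -0.64 ± 0.21. In A2780CBNDXL a spot marked as an outlier on array 1 left 3 arrays, with log2 ratios of -0.52, -0.66 and -0.60 and a mean of -0.61 ± 0.07 (SD, 3 arrays). The second *PPIF* probe, A_23_P313938, was near background and above it in 0 of the 8 channels of A2780CBNDXL, so it gives no ratio there that can be read.

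Of the nuclear members, *PPIH*, a component of the U4/U6 snRNP complex, was below its control on all 8 arrays (chr1:42896716-42897106). Its log2 ratios were -0.07, -0.44, -0.08 and -0.46 in A2780CBN, a mean of -0.26 ± 0.22, and -0.18, -0.78, -0.06 and -0.71 in A2780CBNDXL, a mean of -0.43 ± 0.36. Forward arrays gave values near 0 and reverse arrays lower ones in both lines.

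*PPIE*, a spliceosomal cyclophilin with an RNA-binding domain (chr1:39983714-39987177), was level with its control in A2780CBN (-0.06 ± 0.06) and above it on all 4 arrays of A2780CBNDXL, at 0.20, 0.49, 0.22 and 0.56, a mean of 0.37 ± 0.18. That difference amounted to 1.29-fold.

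*PPIG*, a cyclophilin with a serine and arginine rich tail, turned with the dye in A2780CBNDXL. Probe A_23_P154411 (chr2:170202074-170202133) gave log2 ratios of -0.67, -0.03, -0.68 and 0.04 in A2780CBN and 0.21, -0.30, 0.32 and -0.35 in A2780CBNDXL, so its means of -0.33 ± 0.39 and -0.03 ± 0.34 were no larger than their SDs. Its second probe, A_24_P179354, was above background in 9 of 16 channels and was not read. *PPIB*, a resident of the endoplasmic reticulum that assists collagen folding (chr15:62239390-62239449), had means of -0.01 ± 0.09 and 0.10 ± 0.32, both within the spread over arrays.

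*PPIA* is often used as a reference gene, and its ratio in A2780CBN turned with the dye. On the representing probe A_32_P68459 (chr7:44807530-44807589) the log2 ratios were 0.28, -0.53, 0.29 and -0.63 on arrays 1 to 4, that is, positive on both forward and negative on both reverse arrays. The mean was -0.15 ± 0.50 in A2780CBN and 0.05 ± 0.09 in A2780CBNDXL. For all 7 *PPIA* probes in A2780CBN the forward mean was above 0 and the reverse mean below it, with forward minus reverse differences of 0.74 to 1.42 in log2, where the median size over all genes tested was 0.35 and the 95th percentile 1.11. In A2780CBNDXL these differences ran from -0.38 to 0.20.

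Averaged over both labellings, the 7 probes spanned log2 ratios of -0.35 to 0.25 for A2780CBN, and 0.05 to 0.49 for A2780CBNDXL. In the latter line 5 of the 7 were above 0 on every array with a value. The probes are not 7 independent readings. A_24_P95038 and A_32_P68459 have the same 60 bases, and A_24_P246943, placed by the design on chromosome 9 (chr9:7588010-7588069), differs from A_24_P340679 on chromosome 7 at 6 of 60 positions. The first 30 bases of that pair are shown with the 4 differing positions in capitals, because such a pair can report the same transcript.
PPIA A_24_P246943: aaggatttgCttAtaagggTtccTgctttc
PPIA A_24_P340679: aaggatttgGttGtaagggCtccCgctttc

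The log2 ratios of this pair ran together on arrays where both had a value, at 0.92 and 0.85 on array 1 of A2780CBN and at -0.46 and -0.45 on array 2. Probe A_24_P772061, whose sequence is unlike both, gave 0.91 and -0.51 on the same arrays. The agreement within the pair thus cannot tell which locus is read. By their sequences alone, values for *PPIA* and its near copies are uncertain as to which locus they report.

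**Figure D3:**
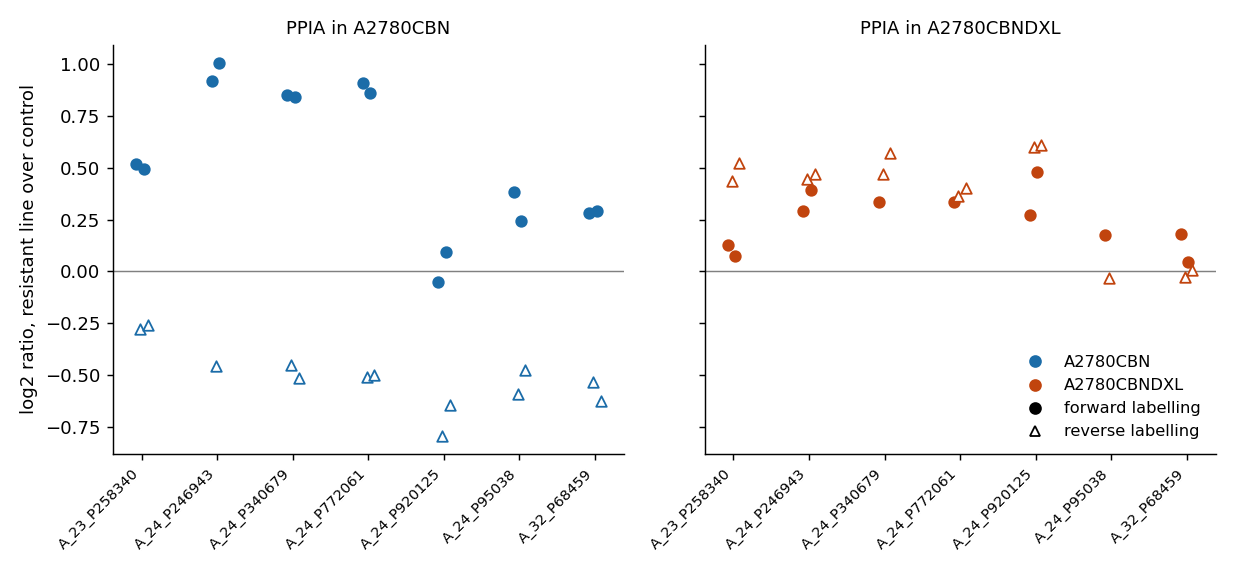
Log2 ratio of resistant line over control on each array for the 7 PPIA probes, with A2780CBN on the left and A2780CBNDXL on the right (filled circles forward, open triangles reverse labelling). In A2780CBN the reverse arrays lie below 0 for every probe and all but 1 forward value lie above it, and in A2780CBNDXL the values lie between -0.03 and 0.61.

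A ratio can differ between lines through the resistant cells or through their control, so the channels were also set against each other after scaling between arrays, matched by slide and labelling. The signal of *PPIC* in A2780CBNDXL stood against that in A2780CBN at a log2 difference of -4.26 ± 0.87 on A_23_P84018 (SD, 4 pairs of arrays) and of -3.56 ± 0.23 on A_23_P422724. It was lower in 4 of 4 pairs with each probe, beyond 2-fold, where 9.82% of 17082 genes were lower and 6.63% higher to that extent. Between the 2 controls the same differences were 0.76 ± 1.04 and 0.17 ± 0.76, within their spread, but these channels lay close to the background and were below it on some arrays, so a difference between the controls could not be measured well. Without array 1 of either line, the 3 remaining line differences on A_23_P84018 were -3.89, -3.76 and -3.82.

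The *PPID* signal on A_23_P386411 was also lower in A2780CBNDXL than in A2780CBN, at -1.07 ± 0.20 and in 4 of 4 pairs, while the controls differed by -0.29 ± 0.10. Probe A_23_P45022 gave -0.35 ± 0.36 between the lines and -0.12 ± 0.25 between the controls, with 3 of 4 pairs lower in both. None of the other 6 members differed by 2-fold with its representing probe, either between the lines or between the controls. Both controls were labelled A2780CC, and 4.68% of 16871 genes differed between them by the same rule (3.33% higher and 1.35% lower in those of A2780CBNDXL).

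**Figure D4:**
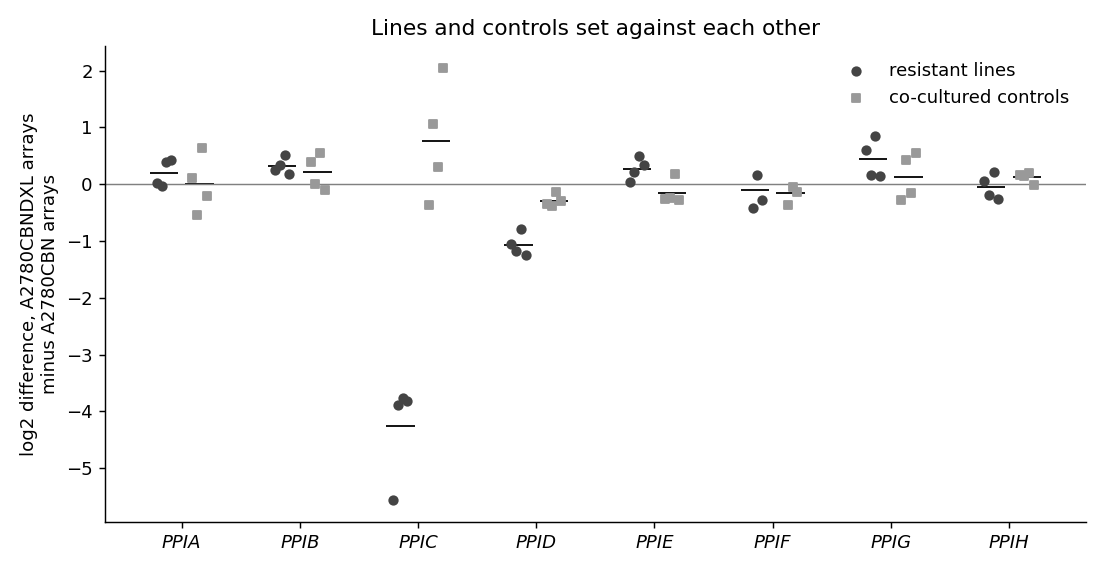
Log2 difference in scaled signal, A2780CBNDXL arrays minus A2780CBN arrays, for the representing probe of each cyclophilin, with circles for the resistant lines, squares for the co-cultured controls and a bar at the mean. PPIC lies between -5.56 and -3.76 in the lines and on both sides of 0 in the controls, and PPID is the other member whose line values all lie clearly below 0.

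Genes named or known as further relatives of the cyclophilins were taken as a list, and none of them passed the rule in either line. Of the 11 on the arrays 10 were tested in A2780CBN and 9 in A2780CBNDXL, with medians of -0.17 and -0.18. With so few genes, a count of 0 stands beside 12.6% of all genes tested in A2780CBN and 16.9% in A2780CBNDXL. *PPIL5*, listed by this former name of *LRR1*, was lowest in A2780CBN at -0.79 ± 0.21, with -0.54 ± 0.07 in A2780CBNDXL. *RANBP2*, a nuclear pore protein with a cyclophilin domain, was at -0.73 ± 0.16 in A2780CBNDXL and -0.26 ± 0.56 in A2780CBN. The spliceosomal *PPIL1* was below its control on every array, at -0.44 ± 0.31 and -0.30 ± 0.12. Among the rest, *PPIL2*, *PPIL3*, *PPIL4*, *PPWD1*, *SDCCAG10* and *NKTR* had means between -0.52 and 0.27 in both lines, *PPIAL4A*, a close relative of *PPIA*, was at -0.05 ± 0.37 in A2780CBN, and *PPIL6* was too dim to test.

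The FK506-binding proteins and the parvulins are the other prolyl isomerases. Of these, in A2780CBN 2 of 16 tested were higher and 0 lower, and in A2780CBNDXL 1 was higher and 1 lower of 16. Their medians were 0.02 and 0.26, and 12.6% and 16.9% of all genes tested passed the rule. *FKBP1B*, a regulator of ryanodine receptor calcium channels, was higher in A2780CBN (1.69 ± 0.24) and lower in A2780CBNDXL (-1.84 ± 0.21). *FKBP7*, an isomerase of the endoplasmic reticulum, was higher in A2780CBN (1.36 ± 0.23) and stood at -0.48 ± 0.35 in A2780CBNDXL. *FKBP8*, which anchors BCL2 at mitochondria, was higher in A2780CBNDXL (1.33 ± 0.46), while in A2780CBN its arrays ran from -1.38 to 1.44.

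Calcineurin and its NFAT targets, the pathway that cyclosporin A blocks through cyclophilins, had 1 gene higher of 12 tested in A2780CBN and 1 of 10 in A2780CBNDXL. These were the transcription factor genes *NFATC2* in A2780CBN (1.08 ± 0.34) and *NFATC4* in A2780CBNDXL (1.30 ± 0.30). In A2780CBNDXL *NFATC2* failed to clear the background on all 4 arrays, while its control cleared it on 3, which puts the line at least 1.5-fold lower. *NFATC4* in A2780CBN was 0.52 ± 0.54. The list's medians were 0.27 and 0.10, and 12.6% and 16.9% of all genes tested passed the rule.

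Among the surface and secreted proteins that bind cyclophilins, *LGALS3BP* was higher in A2780CBN. It encodes a glycoprotein described as a binding partner of cyclophilin C, the product of *PPIC*. Its mean intensity was 3214 in A2780CBN and 396 in the control, with log2 ratios from 2.48 to 3.48 and a mean of 3.01 ± 0.42. In A2780CBNDXL the mean was 0.31 ± 0.23, with all 4 arrays above 0. *BSG*, the cell surface receptor for extracellular cyclophilins A and B, ran from -1.20 to 0.95 over the arrays of A2780CBN and was 0.83 ± 0.52 on the 3 measured arrays of A2780CBNDXL. *CAMLG*, a cyclophilin B ligand, was 0.92 ± 0.14 in A2780CBN, just short of 2-fold, and 0.42 ± 0.04 on 3 arrays of A2780CBNDXL.

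The secretory pathway in which cyclophilins B and C work was followed through 18 genes of protein folding and collagen modification. In A2780CBN 1 of 15 was higher, *P4HA2*, a collagen prolyl hydroxylase (1.35 ± 0.43), and it was -0.82 ± 0.08 in A2780CBNDXL. In A2780CBNDXL 1 of 16 was lower, *PLOD2*, a lysyl hydroxylase of collagen, with mean intensities of 187 in the line and 2108 in the control and a log2 ratio of -3.48 ± 0.15. In A2780CBN *PLOD2* was 0.08 ± 0.22. The medians of the list were 0.31 and -0.04, and 12.6% and 16.9% of all genes tested passed the rule.

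The partners of the remaining members were counted in the same way, beside the 12.6% of all genes that passed in A2780CBN and the 16.9% in A2780CBNDXL. Of the mitochondrial permeability transition genes around *PPIF*, 0 of 11 passed in A2780CBN and 1 of 8 in A2780CBNDXL, the ADP/ATP carrier *SLC25A4*, lower at -1.44 ± 0.17 with -0.61 ± 0.11 in A2780CBN. Of HSP90 and its co-chaperones around *PPID*, 0 of 9 and 0 of 7 passed. Genes without a value on every array were not tested. In A2780CBNDXL these included *HSPD1* of the mitochondrial list, at -1.38 on 3 arrays, with the others of that list between -0.45 and 0.31. Of the HSP90 list they were *HSPA8* (-0.92 on 2 arrays), *PTGES3* (-0.73 on 3) and *STUB1* (0.435 on 3). Of the spliceosome partners of *PPIE* and *PPIH*, 0 of 14 passed in A2780CBN and 1 of 14 in A2780CBNDXL, *XAB2*, at 1.00 ± 0.35, which is at the limit. In A2780CBN the *XAB2* arrays ran from -1.13 to 1.14 with the dye. Of 14 genes used as references in PCR, 11 were tested in A2780CBN and 12 in A2780CBNDXL. *ACTB* had a value on only 1 array of A2780CBN, and *RPLP0* was tested in neither line. *B2M* was higher in A2780CBN (2.54 ± 0.17) and -0.62 ± 0.19 in A2780CBNDXL. *TFRC* was lower in both (-1.03 ± 0.04 and -1.34 ± 0.17), and *PGK1* was lower in A2780CBNDXL (-1.17 ± 0.19, with -0.38 ± 0.09 in A2780CBN).

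A list of 11 genes around *PPIC* on chromosome 5 had little change close to it. *SNX24*, whose probe lies 0.02 Mb away, was at -0.08 ± 0.33 in A2780CBN and 0.17 ± 0.07 in A2780CBNDXL. On the other side *PRDM6*, at 0.16 Mb, was -0.24 ± 0.48 and 0.61 ± 0.27. *SNX2* was -0.08 ± 0.36 on 3 arrays and -0.01 ± 0.06, *CEP120* 0.32 ± 0.17 and -0.54 ± 0.26, and *CSNK1G3* -0.18 ± 0.02 and 0.04 ± 0.27. None of these 5 genes, from *SNX2* to *CSNK1G3*, passed 2-fold in either line.

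Farther out, *LOX*, the lysyl oxidase that crosslinks collagen, was higher in both lines. It was 1.98 ± 0.30 in A2780CBN, where the control was above background on 1 of 4 arrays, and 3.56 ± 0.22 in A2780CBNDXL, with mean intensities of 2037 in the line and 174 in the control. The order of the lines was thus opposite to that of *PPIC*. *ZNF608*, a zinc finger gene, was lower in A2780CBN (-1.29 ± 0.15) and higher in A2780CBNDXL (2.29 ± 0.10). In A2780CBN its signal was dim, with mean intensities of 30.8 in the line and 75.5 in the control. There the line cleared the background on 3 of 4 arrays. *SRFBP1* stood at -0.61 ± 0.17 and 0.30 ± 0.15, *FTMT* at 0.31 ± 0.05 and -0.26 ± 0.05, and *SNCAIP* and *GRAMD3* were above background in 0 channels. In all, 2 of 8 neighbours tested passed in A2780CBN and 2 of 9 in A2780CBNDXL, beside 12.6% and 16.9% of all genes tested.

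**Figure D5:**
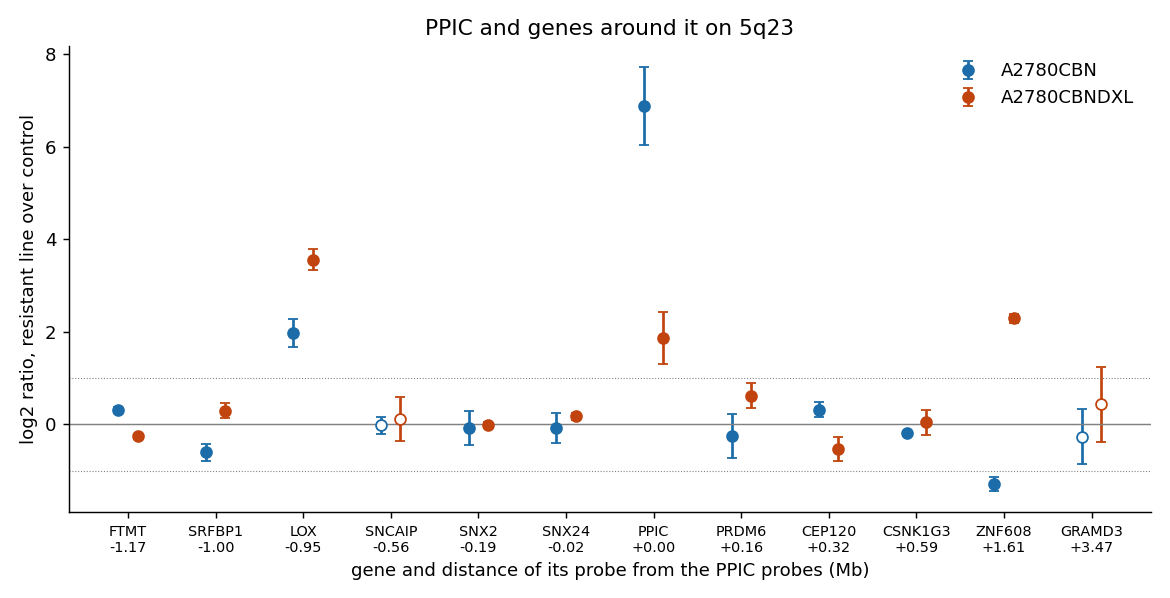
Mean log2 ratio of resistant line over control, with SD over arrays, for PPIC and the genes around it on chromosome 5, ordered by the distance of their probes from those of PPIC (in Mb, under each name); open circles were not above background on any array, and dotted lines mark 2-fold. SNX24 and PRDM6, the nearest on either side, lie between -0.24 and 0.61, and LOX and ZNF608 are the neighbours past 2-fold.

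The genes whose ratios over the 8 arrays lay closest to those of *PPIC* were found by the root mean square difference in log2. They were drawn from 10843 genes well above background in 1 channel on all 8 arrays. The other channel could thus lie near the background, as in the controls of *PPIC*. The arrays hold 1 sample per line, so the likeness rests on 2 lines. The first 4 genes by this measure were the same for both *PPIC* probes. They were *PAPPA*, a secreted metalloproteinase that cleaves IGF-binding proteins, *SULF1*, an extracellular heparan sulfatase, *EPDR1*, and *SAMD9L*. *PAPPA* was 5.76 ± 0.41 in A2780CBN and 2.19 ± 0.23 in A2780CBNDXL, at a root mean square difference of 0.47 from A_23_P422724 and 1.09 from A_23_P84018. *SULF1* followed with 6.04 ± 0.09 and 2.87 ± 0.44, *EPDR1* with 6.23 ± 0.24 and 3.45 ± 0.17, and *SAMD9L* with 5.55 ± 0.33 and 3.39 ± 0.87. The fifth was *ALDH1A3*, an aldehyde dehydrogenase, for the representing probe (4.52 ± 0.29 and 2.52 ± 0.58) and *CA2*, a carbonic anhydrase, for the other (4.83 ± 0.55 and 1.16 ± 0.25).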

How the data were processed

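RNA of A2780CBN and of A2780CBNDXL, each 1 pooled sample of 3 isolations, was measured against A2780CC on 4 Agilent 4x44k arrays per line (8 arrays, 2 slides). The deposited files are Agilent Feature Extraction output (10.7.1.1 on slide 1, 10.7.3.1 on slide 2), with probe coordinates on NCBI36. The authors had background-subtracted and dye-normalized the processed intensities in these deposited files with that software. The submitters' processing notes also name Partek. Raw mean intensity and median background served for alternatives. Doses are printed as the labels give them; the study's text uses the figure of the combination as an inhibitory concentration.

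Signs follow the forward arrays, where the line carries Cy5. The labels of the reverse arrays list the same dyes although their names say reverse, and these arrays were turned over as named. After that, the correlation over probes between opposite labellings of 1 line was 0.58 to 0.74, and between lines 0.11 to 0.28. Between arrays of 1 line with the same labelling it was higher, at 0.85 to 0.90.

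Outlier spots were left out and spots of a probe averaged. Log2 ratios were averaged within labelling and then over both. Where one side was dim on all 4 arrays, the fold is a lower bound, with the dim side set on each array to the lowest signal well above background or its own if higher. A change needed 2-fold on average, the same sign on 4 arrays, and line or control well above background on each. With 1 sample per line no test between samples was possible. The number of arrays limits the precision. In 59.8% to 67.5% of spots the signal was above background. Channels were compared between lines after Aquantile scaling (limma 3.58.1, R 4.3.3; Python 3.11.15, pandas 2.3.3). The methods' 3-way ANOVA and limma were run as alternatives and measure labelling and hybridization error only, at a false discovery rate of 0.05. Members, gene lists and the rule for named genes were chosen with earlier results of these data known. Named were all members, all listed relatives of the cyclophilins, cyclophilin-binding proteins and neighbours on chromosome 5. Also named were up to 4 genes past 2-fold of each other list and the 5 genes most like *PPIC*. Some listed genes without a value on every array are named as well. Arrays of A2780DXL were not used here. The sequence of 1 *PPID* probe is not reported here.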

Additional observations from a re-analysis of the deposited data

Results flagged for a closer look

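On probe A_23_P84018 of *PPIC*, array 1 of A2780CBNDXL gave a log2 ratio of 1.01, far from the 2.18, 2.16 and 2.09 of the other arrays. Its gap to the nearest value was 0.92 of the whole range, beyond Dixon's limit for 4 values, which chance alone passes in about 1 of 20 groups. Both channels of the spot were not well above background there.

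Only cyclophilins and listed genes named above that could be tested in both lines were considered here. The following lay on one side of 0 on every array of A2780CBN and on the other side on every array of A2780CBNDXL. The difference between the lines was not tested, since each line is 1 sample. The mean log2 ratios, A2780CBN first, were 1.69 and -1.84 for *FKBP1B*, 1.36 and -0.48 for *FKBP7*, and 1.35 and -0.82 for *P4HA2*. Near *PPIC* on chromosome 5 they were -1.29 and 2.29 for *ZNF608*, -0.61 and 0.30 for *SRFBP1*, 0.32 and -0.54 for *CEP120*, and 0.31 and -0.26 for *FTMT*. *ZNF608* was dim in A2780CBN, where the line cleared the background on 3 of 4 arrays. The *FTMT* probe was dim, and in A2780CBNDXL the line cleared the background on 2 of 4 arrays. A second *FTMT* probe was not above background on any array. *B2M*, a component of MHC class I, gave 2.54 and -0.62. None of the 8 cyclophilins was among them. *NFATC2* and *PPIL6* had the same pattern but could not be tested, *NFATC2* in A2780CBNDXL and *PPIL6* in either line. The share of all genes with this pattern is not given here.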

How the results depend on the processing

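No cyclophilin value past 2-fold changed direction under the alternatives run. Ratios of the listed genes and of the neighbours on chromosome 5 were not run through these alternatives. Among representing probes short of 2-fold, the sign turned in A2780CBN for *PPIA* (1 of 11 alternatives) and *PPIE* (3 of 11), and in A2780CBNDXL for *PPIG* (1 of 11). In A2780CBN, the number of changed genes (2253) was 605 with normexp at an offset of 50, 1111 at an offset of 1, 4860 at 1.5-fold and 1121 at 3-fold, and 2283 to 2330 with 1 array left out. The count of changed cyclophilins (1) was 0 when both channels had to be above background and 2 at 1.5-fold, and 1 with any array left out. The log2 ratio of *PPIC* was 3.24 and 4.70 with normexp at an offset of 50 and of 1, and 6.67 to 7.08 with 1 array left out. In A2780CBNDXL, the number of changed genes (2893) was 1178 with normexp at an offset of 50, 5699 at 1.5-fold and 1467 at 3-fold, and 2899 to 3188 with 1 array left out. The count of changed cyclophilins (1) was 2 without array 1, on slide 2 alone, with no filter on dim probes and when any probe of a gene could count, 0 at 3-fold, and 1 to 2 with 1 array left out. In the 4 settings with 2, *PPIC* joined *PPID*. With the probes of each gene averaged the count was again 1, but *PPIC* (2.02) counted in place of *PPID* (-0.96). The log2 ratio of *PPIC* was 0.50 and 0.95 with normexp at an offset of 50 and of 1, 2.62 against the control of the other line, and 1.57 to 2.15 with 1 array left out. The cause of the shifts with normexp was not tested. In all, 74 of the values that answer a comparison stayed within the limits set for them and 19 moved, and of the values of single probes and genes 326 stayed and 27 moved. Normexp with an offset of 1, counting any probe of a gene, and the comparison of lines without scaling between arrays were chosen after seeing the data. No paired analysis was possible because each line is 1 sample, so there are no replicate samples to pair; arrays of the lines were matched by slide and labelling only to set their channels side by side.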
